A study of Mus musculus with 6 samples.

Results

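Pramel6, Pramel7 and Pramel18 belong to the PRAME family of leucine-rich repeat proteins and were followed here in 3 haploid and 3 diploid mouse embryonic stem (ES) cell samples. Their probe sets were taken by symbol, and 5 of the 45037 probe sets on the array carried 1 of these 3 symbols alone. Pramel6 and Pramel7 had 2 probe sets each and Pramel18 had 1, among 18193 genes with a probe set of their own. The 3 genes were selected on values from these same arrays, and which contrast the choice rested on is not stated. All their differences between HAP1 with HAP2, HTG1 and the diploid samples are therefore described without a test.

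ES cells are pluripotent cells derived from the inner cell mass of the early embryo, and haploid ES cells carry a single set of chromosomes. HAP1 (passage 24) and HAP2 (passage 21) were haploid lines of F1 CBAxB6 strain, and HTG1 (passage 11) was a haploid line labelled mixed transgenic, with no transgene or promoter named. The diploid samples were described as male; replicates 1 and 2 were of 129Sv and replicate 3 of 129 strain. All samples were grown in 2i medium, which inhibits the kinases MEK and GSK3, and RNA was taken on day 2 after passaging. Strain and ploidy differed together, so their parts in any difference cannot be told apart. As the diploid samples were all described as male, a part of sex cannot be told apart from them either. HTG1 also differed from HAP1 and HAP2 in both strain and passage, whose parts cannot be told apart either. The titles call the diploid samples biological replicates but do not say whether they came from separate lines. The p-values therefore measure the spread between named lines in the haploid group and between replicates of unstated origin in the diploid group. Each haploid line stands for itself, and HTG1 is 1 array.

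PRAME proteins take their name from a melanoma antigen and are found mainly in germ cells, oocytes, early embryos and tumours. Several act as substrate receptors of ubiquitin ligases built on cullin 2, together with the adaptors elongin B and elongin C. Pramel7 is known from the inner cell mass, lies downstream of LIF and Stat3, and directs the methylation maintenance factor Uhrf1 to degradation. Pramel6, its close relative, has been described in the same setting. This is background and was not measured here, since the arrays report RNA only.

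Pramel7 and Pramel6 are direct neighbours on chromosome 2, inside a cluster of olfactory receptor genes, and Pramel18 lies on chromosome 4 beside Pramel19. The start regions of Pramel6 and Pramel7 are shown because the brighter probe sets of both genes were higher in the haploid lines. Each runs 5′ to 3′ from 250 bases before to 50 bases after the RefSeq start site, and capitals mark CpG, the sites where DNA methylation can occur. The Pramel6 window is chr2:87506315-87506614 (plus strand) and the Pramel7 window chr2:87492369-87492668 (minus strand), both from RefSeq on build GRCm38.p6.
Pramel6: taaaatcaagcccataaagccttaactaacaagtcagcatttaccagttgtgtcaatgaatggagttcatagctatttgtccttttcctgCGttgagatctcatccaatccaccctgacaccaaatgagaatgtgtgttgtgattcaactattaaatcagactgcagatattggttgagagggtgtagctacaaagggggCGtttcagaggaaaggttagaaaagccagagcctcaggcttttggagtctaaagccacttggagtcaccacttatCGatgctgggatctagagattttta
Pramel7: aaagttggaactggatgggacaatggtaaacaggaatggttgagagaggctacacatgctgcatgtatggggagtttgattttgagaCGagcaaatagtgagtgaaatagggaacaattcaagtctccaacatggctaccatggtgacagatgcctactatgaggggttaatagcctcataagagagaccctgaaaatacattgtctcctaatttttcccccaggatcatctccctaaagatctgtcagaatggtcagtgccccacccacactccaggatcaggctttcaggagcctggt

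Both windows were poor in CpG. Pramel6 held 3 CpG and Pramel7 held 1, against a median of 7 over 32851 RefSeq windows of the same length. Of all windows, 31.4% held as few as Pramel6 and 14.1% as few as Pramel7. The GC content was 42% for Pramel6 and 46% for Pramel7, and the median window had 52.7%. A total of 9 motifs were searched on both strands, 8 of them for factors of pluripotent cells or for general promoter elements and 1 chosen after the sequences had been read. The motif CACCC, a core of Kruppel-like factor sites, occurred 2 times in Pramel6 and 1 time in Pramel7, and 57.5% of all windows held it. ACAAAG, a core shared by Tcf and Sox sites and the one chosen late, occurred 1 time in Pramel6 and 0 times in Pramel7, and 18.7% of all windows held it. The other 7 motifs occurred in neither window. Of these, the Stat-type spacings TTCNNNGAA, TTCCNGGAA and TTCNNGAA were held by 8.30%, 1.15% and 8.52% of all windows. The E-box CACGTG and its longer form CACGTGAC were held by 7.15% and 2.25%, the TATA box TATAAA by 13.6% and the octamer ATGCAAAT by 1.74%. No motif matches overlapped. The longest run of letters that both windows shared on the printed strand was 10 bases, tggttgagag. A match is a description of the letters and not a bound site.

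The ES cell identity of the samples was checked by markers. The mean of 8 ES cell markers, Pou5f1 and Sox2 among them, lay between 12.5 and 12.7 (log2) on all 6 arrays, although limma called 2 of the 8 higher and 1 lower in the haploid lines. Nanog differed by 0.47 (limma adjusted p = 0.0227), Pou5f1 by 0.40 (0.0246) and Lin28a, an RNA-binding protein that blocks let-7 processing, by -1.49 (0.0164). Markers of fibroblasts, which are often used as feeder cells, were lower in the haploid lines. The mean of 8 of 8 listed markers ranged from 5.39 to 5.61 in the haploid and from 6.24 to 7.14 in the diploid samples, and none of the 8 was below the lowest lower quartile (4.80) on all arrays. Only Col1a2 among them passed the test, and Thy1 differed by -0.03. The mean of 7.14 was that of diploid replicate 1, where Col3a1 read 8.0 against 5.17 and 4.90 in replicates 2 and 3. Col1a1 was not highest there, at 7.63 against 7.75 and 7.74. Primitive endoderm markers ranged from 5.78 to 5.89 and from 5.68 to 5.98. Trophoblast markers ranged from 7.0 to 7.43 and from 6.75 to 7.11, and 1 of the 7, Gata3, rose by 1.40 (limma adjusted p = 0.0185). The part of the fibroblast signal in the results below was not tested. In such bulk samples, fewer cells of a type and less RNA per cell cannot be told apart. The lower quartile of an array, used here as a mark of dim values, lay between 4.80 and 4.87 (log2).

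Pramel7 was higher in all 3 haploid lines by its brighter probe set, 1439810_s_at. Its RMA values (log2) were 5.12, 5.23 and 4.62 in diploid replicates 1 to 3, 6.84 in HAP1, 7.17 in HAP2 and 8.30 in HTG1. The groups did not overlap, with all haploid arrays higher, as for 17.7% of all genes, and the lowest haploid value lay 1.62 above the highest diploid one. HTG1 was the highest array, with HAP1 and HAP2 close to each other in between. The haploid mean was 7.44 ± 0.77 (SD, n = 3) and the diploid mean 4.99 ± 0.32 (SD, n = 3), a difference of 2.45 or 5.47-fold on the RMA scale. HTG1 exceeded the mean of HAP1 and HAP2 by 1.30 and the diploid mean by 3.32. The diploid values stood near the lower quartile, where RMA compresses differences.

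The other probe set of Pramel7, 1439809_at, showed a much smaller difference in the same direction. Its values were 5.46, 5.38 and 5.64 in the diploid samples, 5.85 in HAP1, 5.95 in HAP2 and 5.99 in HTG1. The groups again did not overlap, by 0.21, and HTG1 stood level with HAP2. The difference was 0.44, with SDs of 0.07 among haploid and 0.13 among diploid samples. This plain set had the higher diploid mean (5.49 against 4.99), so 1439810_s_at was the brighter over all 6 arrays only through the haploid lines. The suffix s_at marks a set whose probes match transcripts of more than 1 gene on the array's design, while a plain at set was designed as specific. Which transcripts the s_at set detected beyond Pramel7 was not tested.

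Pramel6 was likewise higher in the haploid lines by its s_at set, but in another order. The values of 1456270_s_at were 4.76, 4.86 and 5.45 in the diploid samples, 7.24 in HAP1, 7.92 in HAP2 and 6.62 in HTG1. The groups did not overlap, with a gap of 1.17, and HTG1 was the lowest of the haploid lines. The haploid mean was 7.26 ± 0.65 and the diploid mean 5.02 ± 0.37 (SD, n = 3 each), a difference of 2.24 or 4.72-fold on the RMA scale. The values of diploid replicates 1 and 2 stood near the lower quartile (4.80 to 4.87), where RMA compresses differences. HAP1 and HAP2 exceeded the diploid mean by 2.56, and HTG1 did so by 1.60. HTG1 thus lay 0.96 below the mean of HAP1 and HAP2, whereas for Pramel7 it lay above it.

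The plain set of Pramel6, 1456269_at, barely separated the groups. Its values were 5.37, 5.07 and 5.15 in the diploid samples, 5.65 in HAP1, 5.59 in HAP2 and 5.27 in HTG1. HTG1 fell inside the diploid range, and the lowest haploid value was below the highest diploid value. The difference was 0.30, with SDs of 0.20 and 0.15. Here too the plain set had the higher diploid mean (5.20 against 5.02), so the s_at set was the brighter only through the haploid lines. For both neighbours the size of the difference therefore depended on the probe set.

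Pramel18 followed yet another pattern and was bright in HTG1 alone. Its only probe set, 1441011_at, read 3.88, 3.71 and 3.69 in the diploid samples, 4.18 in HAP1, 4.25 in HAP2 and 7.96 in HTG1. The diploid and HAP values all lay under the lower quartile, and HAP1 stood 0.29 above the highest diploid value. HTG1 exceeded the mean of HAP1 and HAP2 by 3.74 and the diploid mean by 4.20 (log2). No fold is given, because the lower levels are dim values that RMA compresses. The difference of haploid and diploid means was 1.70, but the SD among haploid lines was 2.16. Without HTG1 the difference was 0.45, so the haploid mean of Pramel18 rested on that line.

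**Figure D1:**
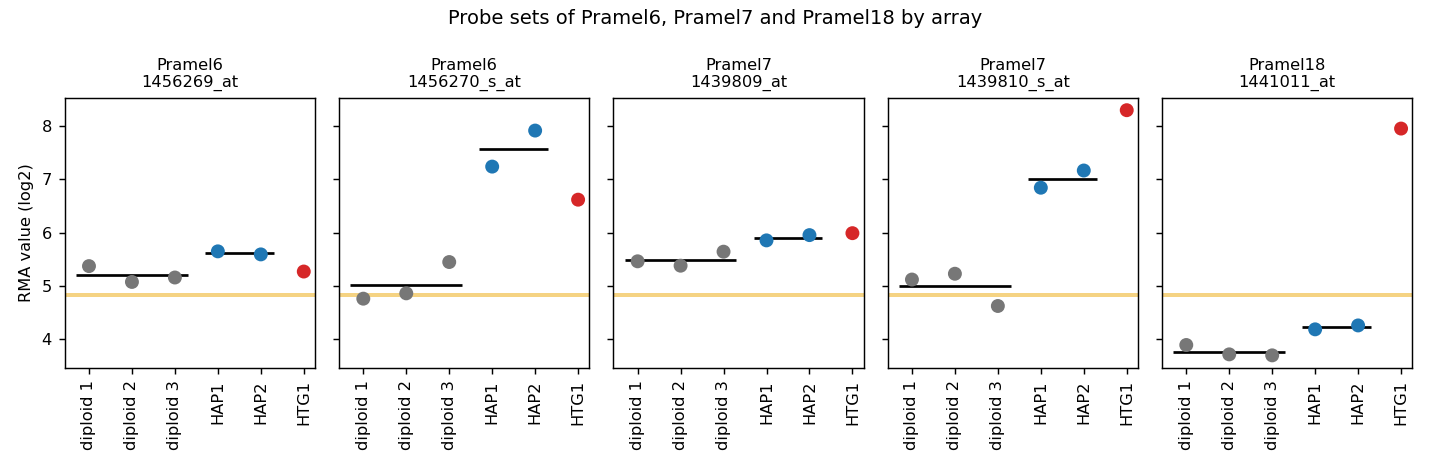
RMA values (log2, vertical axis) of the 5 probe sets of Pramel6, Pramel7 and Pramel18 on each of the 6 arrays (horizontal axis): diploid in grey, HAP1 and HAP2 in blue, HTG1 in red. Black bars are the means of the diploid samples and of HAP1 with HAP2, and the yellow band spans the lower quartiles of the arrays; HTG1 was highest for Pramel7 1439810_s_at at 8.30 and for Pramel18 at 7.96 but lowest of the haploid lines for Pramel6 1456270_s_at at 6.62.

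Among all 18193 genes, each taken by its brightest probe set, the haploid minus diploid difference ranked 34 from the highest for Pramel7, 44 for Pramel6 and 116 for Pramel18. For HTG1 minus the mean of HAP1 and HAP2, Pramel18 ranked 8, Pramel7 135 and Pramel6 17995. HTG1 was the highest array for 17.3% of all genes. These ranks describe genes chosen for their values. For Pramel6 and Pramel7 they also rest on s_at sets that were the brightest only through the haploid lines. HAP1 with HAP2 and HTG1 were set against the same diploid arrays, so those differences share their controls.

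The genes whose values over the 6 arrays were most like each Pramel gene differed from gene to gene. Likeness was Pearson's r over the 6 arrays among 1723 genes with an SD of at least 0.5, and it is a description in which group differences drive much of r. For Pramel7 the highest were Kdm2b (r = 0.996), a histone demethylase of a Polycomb complex, Tmem181a (0.994), 2900052L18Rik (0.994), Klhl13 (0.992), an adaptor of a cullin 3 ligase, and Ercc4 (0.990), a DNA repair nuclease. For Pramel6 they were Cyp7b1 (0.992), an oxysterol hydroxylase, Tmc7 (0.991), Apool (0.987), Aqp3 (0.987), a water and glycerol channel, and Ebp (0.986), an enzyme of cholesterol synthesis. For Pramel18 they were the LIM protein Pdlim3 (0.999), Gm20767 (0.997), AF067061 (0.997), Gm11544 (0.994) and the sulphated steroid transporter Slc10a6 (0.994). Between the Pramel genes r was 0.77 for Pramel6 with Pramel7, 0.80 for Pramel7 with Pramel18 and 0.30 for Pramel6 with Pramel18. As many as 310 genes reached r over 0.9 with Pramel7, 258 with Pramel6 and 85 with Pramel18. All these r values rest on the brightest sets, which for Pramel6 and Pramel7 are the s_at sets.

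Of the other PRAME family genes 1 passed the test, close to the share called over all genes. This list and all lists below were chosen with earlier results of these data known. Their counts are therefore a description and not tests of lists fixed in advance. Of 11 other family genes with a probe set of their own, limma called 0 higher and 1 lower in the haploid lines (adjusted p under 0.05 over all genes), with 1 higher and 3 lower at an unadjusted p under 0.05. Over all genes 14.9% were called, 7.92% as higher and 6.96% as lower. The balance of directions over all genes depended on the scaling, with 1441 called higher and 1266 lower on the deposited values, 1234 and 1457 after quantile normalization, and 1150 and 1551 with chromosome shifts subtracted. The median difference of the 11 genes was -0.06 and that of all genes -0.03 (log2). The gene called lower was Pramel13 on chromosome 4, at 9.77, 9.53 and 9.65 in the diploid samples and 9.05, 9.22 and 9.05 in HAP1, HAP2 and HTG1. It differed by -0.54 ± 0.11 (SE, limma adjusted p = 0.0192). Its adjusted p was 0.0502 without diploid replicate 3 and 0.074 without HTG1, so the count became 0 without either array. Without HAP1 the count was 2, since Pramel12 then passed (limma adjusted p = 0.0467).

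Pramel12 on chromosome 4 had the largest difference among these 11 genes, and its 3 probe sets gave the same direction. By 1434567_at it read 7.0, 8.06 and 7.53 in the diploid samples, 7.70 in HAP1, 8.58 in HAP2 and 9.06 in HTG1. HTG1 was highest and diploid replicate 1 lowest, and HAP1 lay within the diploid range. The difference was 0.92 ± 0.39 (SE, limma adjusted p = 0.158), and it was 1.67 by 1434566_a_at and 0.93 by 1439160_at. HTG1 exceeded the diploid mean by 1.54 (limma adjusted p = 0.0983), with its spread assumed to be that of the other lines.

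The other 9 family genes did not pass the test. Prame, the X-linked founder of the family, differed by -0.34 (limma adjusted p = 0.0677) and Pramel34 by -0.28 (limma adjusted p = 0.0788). When the median shift of each chromosome was taken off, a step added once the values were known, Prame differed by -1.11 and Pramel34 by -0.35 and both passed (limma adjusted p = 0.00309 and 0.0431). The median shift of X-linked genes above the median level was 0.77, which makes up the move of Prame from -0.34 to -1.11, and Prame itself lay under the median level. Pramel34 lay under the lower quartile on all arrays, so its values are dim. Pramel1 (-0.06), Pramel25 (-0.06), Pramel27 (0.05), Pramel29 (-0.06), Pramel32 (0.02), Oog3 (0.06) and Oog4 (-0.13) had limma adjusted p between 0.447 and 0.923. Of these, only Pramel1 and Pramel32 were above the lower quartile on all arrays. Oog genes are family members known from oocytes.

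A further 8 probe sets carried several symbols with a PRAME family gene among them and cannot be assigned to 1 gene. Probe set 1449962_at, with 5 symbols, read 3.96, 3.95 and 4.69 in the diploid samples, 6.23 in HAP1, 7.33 in HAP2 and 6.49 in HTG1. All haploid values lay above all diploid values, by at least 1.54, where 17.7% of all genes had all haploid arrays higher. Probe set 1456598_at, with 7 symbols, read 5.01, 5.02 and 5.11 in the diploid samples, 5.06 in HAP1, 5.40 in HAP2 and 7.92 in HTG1. It was high in HTG1 alone, as Pramel18 was. Both were singled out after their values were seen, and the haploid and diploid groups overlapped for 4 of the other 6. For the remaining pair, 1437153_at and 1438468_at, all haploid values were lower, by 0.18 and 0.22 on average. The gaps between the groups were only 0.0044 and 0.073, and both sets lay under the lower quartile on all arrays. The share of all genes with all haploid values lower was not computed.

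**Figure D2:**
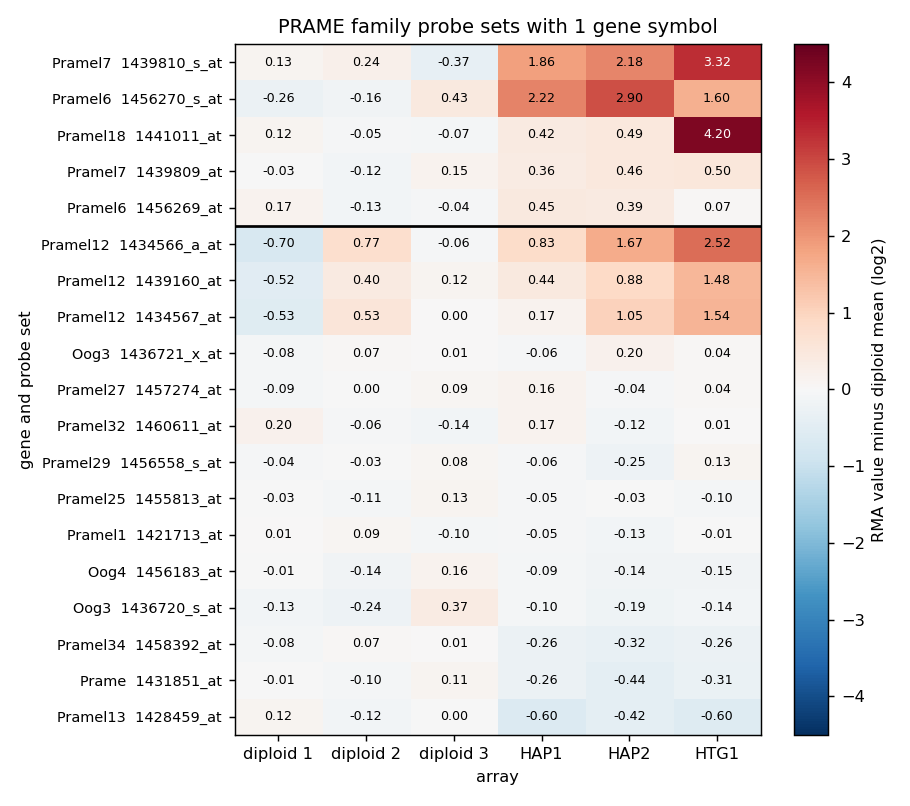
RMA value minus the mean of the diploid samples (log2, colour and printed numbers) for the 19 PRAME family probe sets with 1 gene symbol (rows) on the 6 arrays (columns). The rows above the black line are Pramel6, Pramel7 and Pramel18, where the s_at sets stood 1.60 to 3.32 above the diploid mean in the haploid lines and Pramel18 stood 4.20 above it in HTG1; below the line Pramel12 was graded and Pramel13 lay below 0 in all haploid lines (mean -0.54).

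The genes next to Pramel6 and Pramel7 on chromosome 2 are olfactory receptor genes, for which no probe set carried a single symbol. Of the 4 protein-coding genes around Pramel18, only C130073F10Rik had such a probe set. C130073F10Rik read 5.75, 5.97 and 6.38 in the diploid samples, 6.45 in HAP1, 7.63 in HAP2 and 8.72 in HTG1. HTG1 was the highest and HAP1 lay just above the highest diploid sample. It differed by 1.57 ± 0.52 between haploid and diploid samples (SE, limma adjusted p = 0.0877) and passed without HAP1, at 2.15 (limma adjusted p = 0.0143). HTG1 exceeded the diploid mean by 2.69 (limma adjusted p = 0.0237, with 4.87% of all genes called higher and the spread of this 1 array assumed to be that of the other lines), and did not pass without diploid replicate 2 (0.077) or 3 (0.071). Against HAP1 and HAP2 it was higher by 1.68 (limma adjusted p = 0.345).

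Of the DNA methylation genes, 2 of 12 fell in the haploid lines and 0 rose, where 6.96% of all genes were called lower and 7.92% higher, with 1 higher and 4 lower at an unadjusted p under 0.05. The median difference was -0.09. Uhrf1, the factor that brings Dnmt1 to newly copied DNA and the known target of Pramel7, read 12.75, 12.55 and 12.65 in the diploid samples and 12.28, 11.95 and 12.21 in HAP1, HAP2 and HTG1. All haploid values lay below the diploid ones, a pattern whose share over all genes was not computed, and HAP2 was the lowest. Uhrf1 fell by 0.51 ± 0.12 (SE, limma adjusted p = 0.0331) and its other probe set by 0.48. It did not pass without diploid replicate 1, 2 or 3, HAP2 or HTG1 (limma adjusted p = 0.0589 to 0.107).

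The de novo methyltransferase Dnmt3a fell more. It read 9.25, 9.82 and 9.64 in the diploid samples and 8.23, 7.94 and 8.0 in HAP1, HAP2 and HTG1. It differed by -1.51 ± 0.16 (SE, limma adjusted p = 0.00319) and passed with any 1 array left out. Its 5 probe sets differed by -0.37 to -1.51, and their mean by -0.82. Dnmt3l, a cofactor of the de novo enzymes, read 11.27, 10.61 and 10.96 in the diploid samples, 9.63 in HAP1, 8.93 in HAP2 and 10.50 in HTG1, so HTG1 lay just under the diploid range. It differed by -1.26 (limma adjusted p = 0.069), and by -1.66 without HTG1, where it passed (0.0164). The maintenance enzyme Dnmt1 differed by -0.18 (limma adjusted p = 0.22), and averaging its probe sets gave -0.35 (0.0496). Dnmt3b differed by -0.07 (limma adjusted p = 0.901), and by -0.43 without diploid replicate 1 (0.0452). The count of calls was 1 without diploid replicate 2, diploid replicate 3 or HAP2, and 4 with the mean of each gene's probe sets.

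Among genes of cullin 2 ligases, 2 of 16 rose and 1 fell, where 14.9% of all genes were called, with 2 and 2 at an unadjusted p under 0.05 and a median difference of 0.04. Elob, the adaptor elongin B, read 11.24, 12.11 and 11.93 in the diploid samples and 13.19, 13.35 and 13.15 in HAP1, HAP2 and HTG1. The haploid lines were all higher and differed less among themselves than the diploid samples did. Elob rose by 1.47 ± 0.22 (SE, limma adjusted p = 0.00794) and its other probe set by 1.27. The substrate receptor Zyg11b rose by 0.83 (limma adjusted p = 0.0198) but missed the threshold when diploid replicate 2, diploid replicate 3 or HAP2 was left out (0.0618 to 0.0781). Appbp2, another receptor, fell by 0.70 (limma adjusted p = 0.005), although averaged over its probe sets it fell by 0.35 (0.118). The scaffold Cul2 (-0.16, limma adjusted p = 0.368) and the elongin C gene Eloc (0.07, 0.707) did not pass.

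Genes of LIF and Stat3 signalling, which lies upstream of Pramel7, moved both ways. Of 15 genes 3 rose and 4 fell, where 14.9% of all genes were called, with 7 higher and 4 lower at an unadjusted p under 0.05 and a median difference of 0.31. Stat3 itself read 10.75, 10.60 and 10.75 in the diploid samples and 9.83, 9.85 and 9.84 in HAP1, HAP2 and HTG1. It fell by 0.86 ± 0.09 (SE, limma adjusted p = 0.00288), but its other 3 probe sets differed by -0.40, -0.19 and 0.07. Without x_at, s_at and a_at sets its adjusted p was 0.0524. Socs3, the feedback inhibitor that Stat3 induces, read 12.05, 11.18 and 11.53 in the diploid samples, 10.24 in HAP1, 10.25 in HAP2 and 9.27 in HTG1. HTG1 was the lowest array. Socs3 fell by 1.66 ± 0.32 (SE, limma adjusted p = 0.0177), and did not pass without diploid replicate 3 (0.0692).

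The kinase Pim1, another Stat3 target, rose by 1.48 (limma adjusted p = 0.00232). Junb fell by 0.83 (limma adjusted p = 0.0449), and missed the threshold when diploid replicate 2 or 3, HAP1 or HTG1 was left out (0.101 to 0.147). Stat3, Socs3 and Appbp2 lie on chromosome 11, whose genes above the median level had a median shift of -0.27, and Junb on chromosome 8, where it was -0.32. With these shifts subtracted Stat3 differed by -0.59 (limma adjusted p = 0.00942), Socs3 by -1.39 (0.0295), Appbp2 by -0.43 (0.0261) and Junb by -0.51 (0.15). The shift was 0.08 for chromosomes 2 and 4, which hold the 3 Pramel genes. The count of 7 calls in this list became 4 without diploid replicate 2 and 3 without diploid replicate 3.

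**Figure D3:**
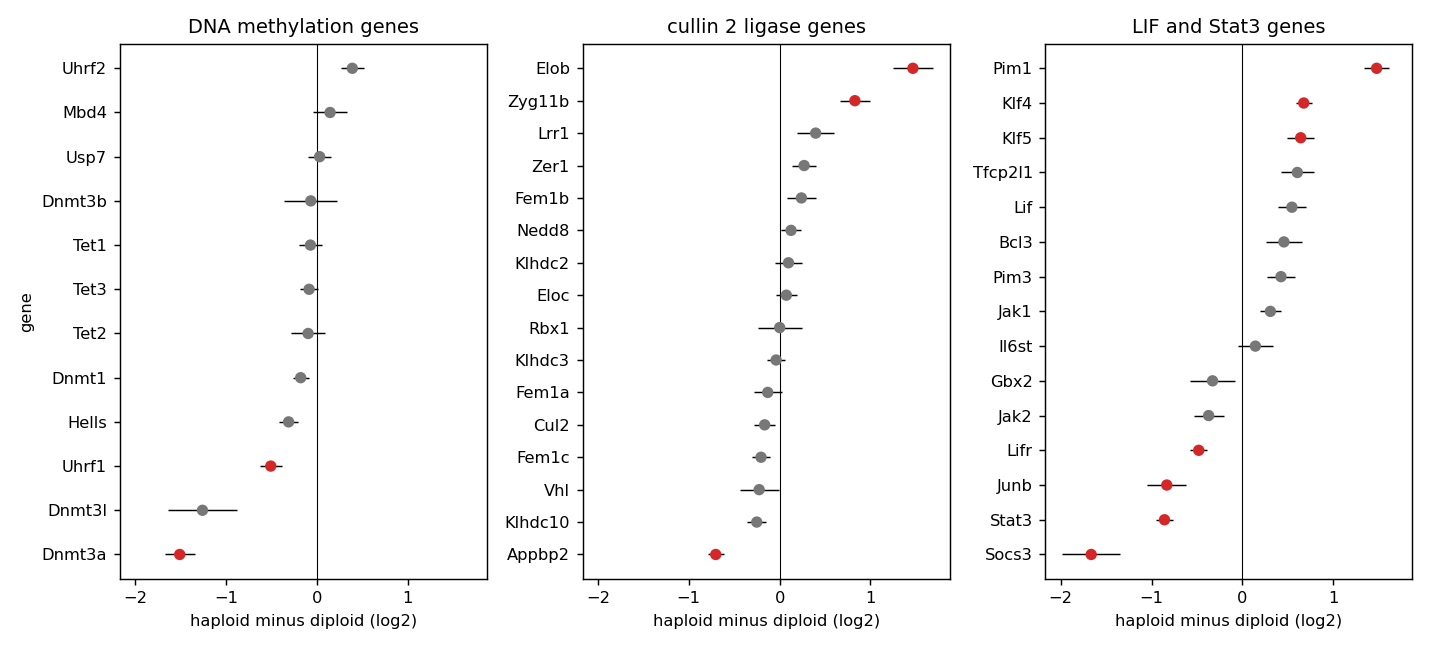
Haploid minus diploid difference (log2, horizontal axis) of each measured gene (vertical axis) in 3 gene lists, with the standard error as a bar; red points passed a limma adjusted p of 0.05 over all genes and grey points did not. Dnmt3a (-1.51) and Uhrf1 (-0.51) were called lower, Elob (1.47) was called higher, and the LIF list spread from Socs3 (-1.66) to Pim1 (1.48).

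Of 20 naive pluripotency and inner cell mass genes 6 rose and 1 fell, where 7.92% of all genes were called higher and 6.96% lower, with 11 higher and 1 lower at an unadjusted p under 0.05 and a median difference of 0.34. Dppa3, which protects maternal DNA methylation and also binds Uhrf1, rose by 2.67 ± 0.45 (SE, limma adjusted p = 0.0116), although its adjusted p was 0.0503 without diploid replicate 2 and 0.0572 without diploid replicate 3. Dppa3 read 9.77, 8.86 and 8.75 in the diploid samples, 12.51 in HAP1, 12.03 in HAP2 and 10.85 in HTG1, so HTG1 was the lowest haploid line, as for Pramel6. Prdm14, which represses the de novo methyltransferases, rose by 0.99 (limma adjusted p = 0.00232) and Foxd3 by 1.28 (0.0211), while Nr5a2 fell by 1.37 (0.0013). Foxd3 did not pass without diploid replicate 2 or 3 (0.0516 and 0.0552), and averaged over probe sets Nr5a2 fell by 0.32 (0.04). The count of 7 calls in this list became 3 without diploid replicate 2 and 3 without diploid replicate 3. This list too was chosen with earlier results of these data known.

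Of 17 germ line genes that DNA methylation is known to keep silent 2 rose and 1 fell, where 14.9% of all genes were called, with 5 and 1 at an unadjusted p under 0.05 and a median difference of 0.38. Taf7l, an X-linked germ cell transcription factor subunit, rose by 1.47 (limma adjusted p = 0.00128), which was 0.70 (0.00915) once the shift of X was taken off. Syce1, a protein of the synaptonemal complex, rose by 0.66 (0.0178) but not without diploid replicate 2 or 3 (0.0503 and 0.0732), and Tdrkh fell by 0.97 (limma adjusted p = 0.00459). The count of 3 calls became 5 without HAP1 and 6 without HTG1.

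Genes of the 2-cell embryo were set beside Pramel18. Of 34 listed genes 13 had a probe set of their own, and no listed Zscan4 gene was among those measured. This list was chosen with its level in HTG1 already known from these arrays, so its values are a description. Its counts, with or without arrays left out, and their contrast with the share of all genes are not independent evidence of the direction. In HTG1 against HAP1 and HAP2, limma called 7 of 13 measured genes higher and 0 lower, with 11 higher and 1 lower at an unadjusted p under 0.05, where 0.242% of all genes were called higher and 0.374% in either direction. HTG1 entered as 1 array whose spread is assumed to be that of the other lines. The 7 genes were higher by 1.89 to 4.32, and 6 of them were called without diploid replicate 2 and 4 without diploid replicate 3. All 7 were called when HAP1 or HAP2 was left out. AF067061 was among them, at 7.13, 7.02 and 7.32 in the diploid samples, 7.86 in HAP1, 7.84 in HAP2 and 12.17 in HTG1. Its only probe set is an x_at set, whose probes may match unrelated transcripts, and AF067061 was higher in HTG1 by 4.32. AF067061, AF067063, Tcstv1 and Tcstv3, all among the 7, lie on chromosome 13. Sp110 differed by -0.44 and Zfp750 by -0.26 between HTG1 and the HAP lines. Between haploid and diploid samples limma called 0 of the 13 genes, 3 being higher at an unadjusted p under 0.05, and 3 were called without HTG1. In HTG1 against HAP1 and HAP2, limma called 0 genes of the other PRAME family members and of the DNA methylation, cullin 2, LIF, naive and germ line lists. At an unadjusted p under 0.05 these lists held 0, 1, 1, 1, 1 and 1 higher genes and 0, 0, 2, 3, 1 and 5 lower genes.

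**Figure D4:**
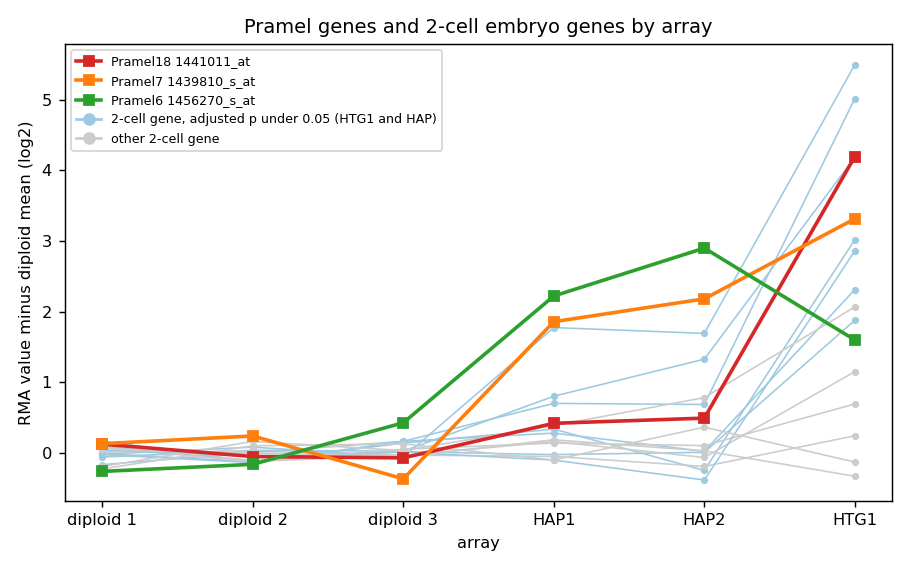
RMA value minus the mean of the diploid samples (log2, vertical axis) on the 6 arrays (horizontal axis) for Pramel6, Pramel7 and Pramel18, each by its brightest probe set, and for 13 genes of the 2-cell embryo; lines only join the values of 1 gene. Pramel18 (4.20) and the 7 genes in light blue, called in HTG1 against HAP1 and HAP2, were highest in HTG1, where Pramel6 (1.60) was lower than in HAP1 and HAP2.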

How the data were processed

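RNA of 6 samples was hybridised to Affymetrix mouse arrays, 1 array per sample. The table that the authors deposited holds log2 values of every probe set, and the submitters' processing notes name RMA. Software, version and settings are not given in the sources used here. RMA brings arrays to 1 distribution, so changes in total RNA cannot be seen, and it compresses differences of dim genes. Of 45037 probe sets (64 controls left out), 34945 had 1 symbol in the platform annotation in GEO, 932 several and 9160 none. Chromosomes and gene order came from the RefSeq table of GRCm38.p6, through Entrez numbers (34737 probe sets matched).

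Each gene was read by its brightest probe set (mean of the 6 arrays). limma 3.58.1 (R 4.3.3; lmFit, eBayes, two-sided, no covariate) compared the groups, with 2 groups for haploid against diploid and 3 groups (diploid, HAP1 with HAP2, HTG1) for the line contrasts. Adjusted p is Benjamini-Hochberg over 18193 genes, called at 0.05. Of these steps only the haploid against diploid fit was run on simulated data, with independent normal noise, and the line contrasts were not.

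The 3 Pramel genes and all lists were chosen with earlier results of these data known. By rule the text names every PRAME family gene, up to 4 called genes of each other list with the largest difference (or the 2 with the highest mean), 10 fixed genes of methylation, cullin 2 and Stat3, the 5 most alike genes and 2 neighbours on each side. Cell type markers and some 2-cell genes, Sp110 among them, were named outside this rule. Alternatives were quantile normalization, aligned medians, a filter on genes below the median level, averaged probe sets, omission of x_at, s_at and a_at sets, trend and robust settings, and omission of each array. Subtraction of chromosome shifts was added after the data were examined. The number of arrays limits the precision.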

Additional observations from a re-analysis of the deposited data

How the results depend on the processing

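Over all results and alternatives, 204 values were recomputed: 168 stayed within 1 SD (pooled over the groups) of the reported value, or within 1.5 times for a count, 36 moved further and 0 reversed. The SD is wide for Pramel18 (2.16 among the haploid lines), so its fall from 1.70 to 0.45 without HTG1 is among the 168. Only differences of the Pramel genes could reverse, because a count can only stay or move. Some values could not change, such as HTG1 minus the HAP mean of a Pramel gene without a diploid array. The same holds for Pramel18 with probe sets averaged, and for HAP1 and HAP2 against diploid without HTG1. The 168 are therefore no measure of robustness. With probe sets averaged per gene, the haploid minus diploid difference was 1.27 for Pramel6 and 1.45 for Pramel7, and Pramel7 in HTG1 minus the HAP mean was 0.69. Without x_at, s_at and a_at sets these were 0.30, 0.44 and 0.086, and Pramel6 in HTG1 minus the HAP mean was -0.35. With 1 array left out, the haploid minus diploid difference ranged from 1.91 to 2.56 for Pramel6, from 2.02 to 2.75 for Pramel7 and from 0.45 to 2.34 for Pramel18. HTG1 minus the HAP mean ranged from -1.30 to -0.62, from 1.13 to 1.46 and from 3.70 to 3.78.

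Genes called in haploid against diploid numbered 2707, and 970 to 2428 with 1 array left out (970 without diploid replicate 3, 1196 without diploid replicate 2, 1429 without HAP2). In HTG1 against HAP1 and HAP2 they numbered 68 and 25 to 123 (26 among genes above the median level, where fewer genes were tested), in HAP1 and HAP2 against diploid 1997 and 389 to 2253, and in HTG1 against diploid 1516 and 251 to 1675. List calls with 1 array left out ranged from 0 to 2 for the other PRAME genes, 1 to 2 for DNA methylation, 3 to 7 for LIF and Stat3, 3 to 8 for naive, 2 to 6 for germ line and 0 to 3 for 2-cell genes. The count was 3 for PRAME genes with chromosome shifts subtracted, 4 for DNA methylation genes with the mean of probe sets and 1 for germ line genes above the median level; the cause was not tested. No paired analysis was possible because the haploid titles name lines and carry no replicate numbers.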
